A study of Drosophila melanogaster with 9 samples.

Results

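The comparison set ring glands of larvae under pre-NRC starvation, that is starved ahead of the nutrient restriction checkpoint named in the series title, against ring glands of feeding larvae of Drosophila melanogaster. Its members are all libraries of these groups, 3 of pre-NRC starvation and 3 of feeding, 6 of the 9 in the series, compared across all genes. The other 3 libraries, of larvae starved after the checkpoint (post-NRC starvation), entered the gene filter, the scaling and the estimate of the spread. Their own levels are set beside the comparison only at the end. Larvae of every group were w1118, a white-eyed laboratory strain, and each library is a pool of many glands that were dissected in batches. No age or length of starvation is given for the starved larvae in the sources used here, and the feeding columns carry an hour label with no stated start, so the age of the larvae and their starvation cannot be told apart. The white mutation of this strain is carried by the feeding larvae too.

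The ring gland is the main endocrine organ of the larva. Its prothoracic gland makes ecdysone, the steroid that times the moults and metamorphosis, its corpora allata make juvenile hormone, and its corpora cardiaca release adipokinetic hormone, which mobilises stored fat and sugar. Insulin and TOR signalling read the nutrient state in most larval tissues, and larvae must pass the checkpoint, a size at which they can form pupae without further food, before they commit to metamorphosis. Starved insect tissues are generally known to switch from building to breaking down stores through foxo, a transcription factor that insulin holds inactive.

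Total counts were 36131089, 32489895 and 32843058 in pre-NRC starvation replicates 1, 2 and 3, and 32999056, 34455483 and 31377442 in feeding replicates 1, 2 and 3. Levels are given in CPM, counts relative to the scaled library size, always for replicates 1, 2 and 3 in that order. Replicates within a group were not equally close. Of genes with at least 200 counts in a pair, 7.58% differed by more than 2-fold between pre-NRC starvation replicates 1 and 2, and 26.3% and 22.8% between those replicates and replicate 3. In feeding the shares were 2.38% between replicates 1 and 2, and 14.5% and 14.8% between those replicates and replicate 3. Feeding replicates 1 and 2 were thus the closest pair, although they differed by more than the counting noise (mean chi-square of 78.5 per gene, against 270.0 between pre-NRC starvation replicates 1 and 2). They were kept as 2 libraries, since the labels call all replicates biological, and counts of calls are also given with them summed. If the pools are not fully independent, the p-values measure only the spread between these samples.

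Starved and feeding glands differed widely. In edgeR's quasi-likelihood test 2998 of the 10883 genes tested (27.5%) passed an adjusted p of 0.05, of which 1750 were higher in pre-NRC starvation (16.1% of all genes) and 1248 lower (11.5%). The rises and falls were unlike in kind. Among the rises, the median log2 change (log2 of pre-NRC starvation over feeding) was 2.75, 1152 genes rose by more than 4-fold and 527 by more than 16-fold. Most of these genes were scarce in feeding glands, with a median of 18.7 CPM in pre-NRC starvation against 2.29 CPM in feeding. Under 1 CPM in feeding were 659 of them, and 96 had no feeding count at all. Among the falls, the median log2 change was −1.09 and only 96 of 1248 fell by more than 4-fold. They were well expressed genes, with a median of 33.5 CPM in pre-NRC starvation against 71.3 CPM in feeding, where the median gene tested had 22.4 CPM.

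**Figure D1:**
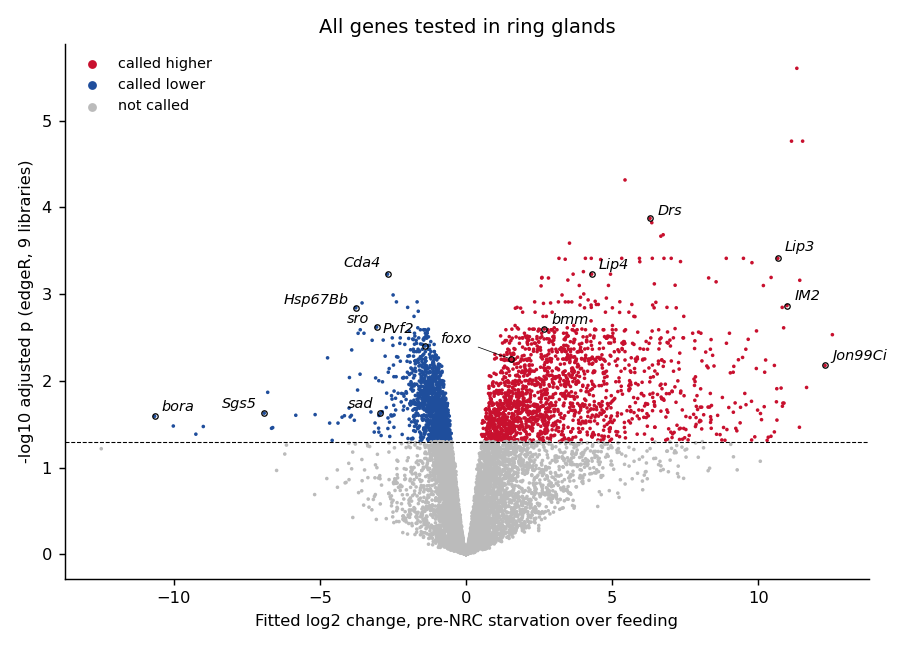
Each point is 1 of the 10883 genes tested, by its fitted log2 change of pre-NRC starvation over feeding and its −log10 adjusted p from edgeR; the dashed line marks an adjusted p of 0.05 and the circled genes are named. Rises (red, 1750 genes) reach far larger changes than falls (blue, 1248 genes), and for genes with no count in a group (IM2, Jon99Ci, bora) the fitted position depends on the prior count and is no estimate of size.

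In 48.4% of all genes tested the 3 pre-NRC starvation libraries did not overlap the 3 feeding libraries, with 25.3% entirely higher and 23.1% entirely lower, so separate groups are common here. How many genes were called rested on replicates 1 and 2. The rises numbered 1115 and 1026 on leaving out pre-NRC starvation replicates 1 and 2 (pre-NRC replicates below) and 824 and 779 on leaving out feeding replicates 1 and 2. Falls numbered 547, 406, 406 and 387 in the same fits. With feeding replicates 1 and 2 summed, 810 genes rose and 453 fell. With the replicate number as a block 1955 rose and 2045 fell, so falls were then the more numerous. In that fit 1640 of the 1750 rises and 1231 of the 1248 falls stood too. In all 9 fits without 1 library 709 rises and 320 falls were kept. Of the 183 genes past the threshold that the naming rule chose, 88 held their call in all 20 alternatives at this threshold, and for each gene below whose call was lost in an alternative that is stated with it. A list count of 0 or 1 is given without alternatives that raised it by 1 or 2. Every list count is to be read beside the shares of all genes, 16.1% called higher and 11.5% called lower. Where a list had 0 calls in 1 direction, 0 to 2 of its genes moved that way at an unadjusted p under 0.05, and 0 or 1 in DESeq2, limma-voom or limma on the FPKM values.

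The gland's own hormone genes moved in opposite directions. Of 7 enzymes of ecdysone synthesis 6 fell, and the dehydrogenase gene sro stood at 167, 141 and 158 CPM in pre-NRC starvation against 1555, 1544 and 789.7 CPM in feeding (log2 change −3.06, SE 0.38, adjusted p = 0.00239). The P450 gene phm, which hydroxylates the ecdysone precursor, had 3309.5, 2564 and 4913 CPM in pre-NRC starvation against 10051, 10070.4 and 15434 CPM in feeding (log2 change −1.72, SE 0.32, adjusted p = 0.00777), and its starved libraries were all lower than its feeding libraries, as in sro. The P450 gene sad had 434, 419 and 3299.7 CPM in pre-NRC starvation against 10216, 10453 and 11050.1 CPM in feeding (log2 change −2.93, SE 0.77, adjusted p = 0.0237). In sad the pre-NRC starvation replicate 3 lay far above the other starved libraries but still below every feeding library, and the call was lost on leaving out any 1 of replicates 1 and 2 of either group (adjusted p up to 0.0631), with feeding replicates 1 and 2 summed (0.0581), and with only the 6 libraries (0.0504). The list's count of falls was 2 to 3 without any 1 of replicates 1 and 2 of either group or without feeding replicate 3, and 2 with feeding replicates 1 and 2 summed. Akh, which encodes adipokinetic hormone, had 11119.6, 17478 and 8439 CPM in pre-NRC starvation against 1372, 4680.3 and 2000.0 CPM in feeding (log2 change 2.20, SE 0.52, adjusted p = 0.0174), with all starved libraries above the feeding ones and the call lost on leaving out pre-NRC replicate 2 and feeding replicate 1 (adjusted p up to 0.0621), and in limma on the FPKM values (0.125). The methyltransferase gene jhamt of juvenile hormone synthesis had 814, 818 and 511 CPM in pre-NRC starvation against 713, 690.5 and 654 CPM in feeding and did not pass (log2 change 0.06, SE 0.23, adjusted p = 0.87), and its groups overlapped. Summed over the 8 prothoracic gland markers, levels were 3895 to 11448 CPM in pre-NRC starvation against 26409 to 36821 CPM in feeding, those of the 6 corpora cardiaca markers 8998 to 18246 CPM in pre-NRC starvation against 1599.8 to 4910.1 CPM in feeding, and those of the 4 corpora allata markers 972 to 1589 CPM in pre-NRC starvation against 928 to 1008 CPM in feeding. Akh made up most of each corpora cardiaca sum, and the ecdysone enzymes most of each prothoracic gland sum. These 2 sums thus largely repeat the genes given above. In whole glands, fewer cells of a type and less RNA per cell cannot be told apart, and this holds for every result here.

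**Figure D2:**
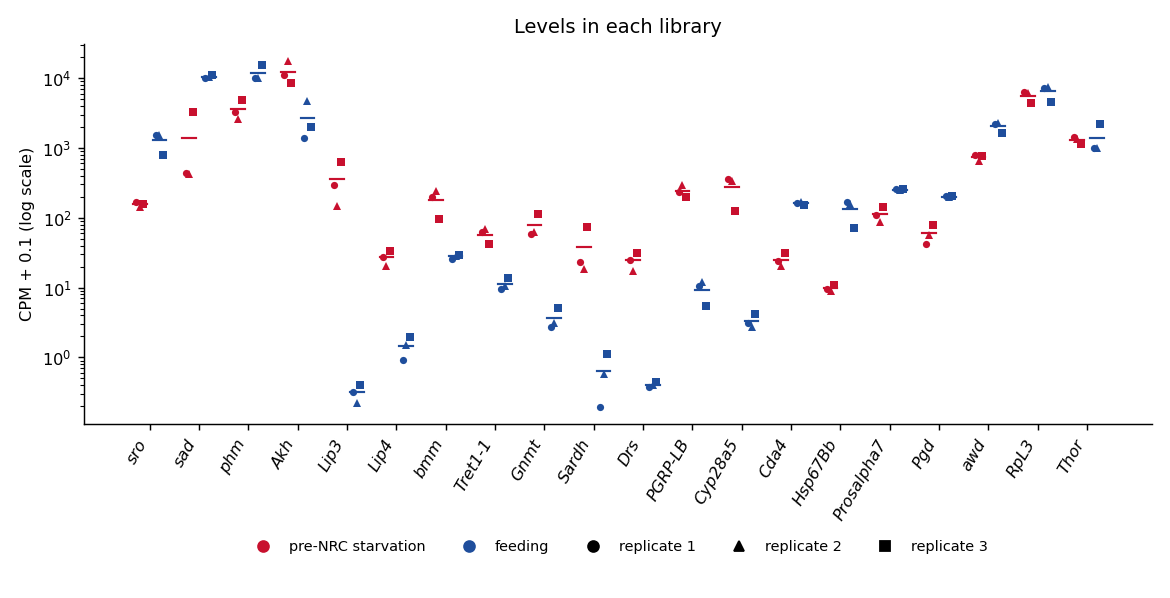
Levels of 20 genes in each library, as CPM with 0.1 added on a log scale, in pre-NRC starvation (red, left) and feeding (blue, right); the symbols are the replicates and the short lines the means of 3 libraries. Lip3, Drs and Sardh are near the bottom in all feeding libraries and well above it in all starved ones, RpL3 and Thor overlap between the groups, and sad has its starved replicate 3 apart from the other two.

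Some fat-splitting enzymes rose, and Lip3 was among the largest rises of all genes. Lip3, a secreted acid lipase known as a starvation-induced gene of the fly, had 294, 146 and 632 CPM in pre-NRC starvation against 0.219, 0.121 and 0.306 CPM in feeding (log2 change 10.67, SE 0.82, adjusted p = 0.000386). Lip4, a related lipase, had 27.1, 20.1 and 33.8 CPM in pre-NRC starvation against 0.813, 1.42 and 1.87 CPM in feeding (log2 change 4.30, SE 0.39, adjusted p = 0.000587). bmm, the triglyceride lipase of lipid droplets, had 198, 239.9 and 96 CPM in pre-NRC starvation against 25.4, 28.5 and 29.5 CPM in feeding (log2 change 2.68, SE 0.34, adjusted p = 0.00252). All starved libraries lay above all feeding libraries in these genes, by far the most in Lip3. The lipase gene mag, known from the gut as a sterol and lipid enzyme, was scarcer, with 2.86, 4.3 and 5.17 CPM in pre-NRC starvation against 0.219, 0.272 and 0.459 CPM in feeding (log2 change 3.68, SE 0.55, adjusted p = 0.00363). Of the 14 lipase and lipid droplet genes tested 6 rose and 1 fell (median log2 change 0.29), against 16.1% and 11.5% of all genes. The fall was Desat1, the fatty acid desaturase, with 598, 467 and 473 CPM in pre-NRC starvation against 758, 762 and 839 CPM in feeding (log2 change −0.62, SE 0.19, adjusted p = 0.0442). It missed the threshold on leaving out pre-NRC replicates 1, 2 and 3, post-NRC replicates 1 and 2 and feeding replicates 1, 2 and 3, each in turn (adjusted p up to 0.141), and in 7 other alternatives (up to 0.1). In the reference annotation BDGP6.54 Lip3 lies on 3R, 13370240 to 13371904, Lip4 on 2L, 10527572 to 10531778 and bmm on 3L, 14776496 to 14786412. Lip3 shares exon sequence with CheA87a there, so part of its counts is uncertain.

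Of 22 genes of sterol and lipoprotein traffic tested 9 rose and 1 fell, against 16.1% and 11.5% of all genes. The median log2 change was 1.44, and 9 of the 22 had a negative change. The summed level of the list went the other way, with 1004 to 3590 CPM in pre-NRC starvation against 4010 to 6741 CPM in feeding. The list as a whole thus did not rise. Rfabg (apolpp), the backbone protein of the main blood lipoprotein, had 132, 109 and 173 CPM in pre-NRC starvation against 16.3, 16.5 and 35.4 CPM in feeding (log2 change 2.60, SE 0.43, adjusted p = 0.00526). Apoltp, a lipid transfer particle protein, had 61.9, 55.7 and 40.1 CPM in pre-NRC starvation against 0.281, 1.09 and 2.3 CPM in feeding (log2 change 5.42, SE 0.71, adjusted p = 0.00265). Both were higher in every starved library, and both are known chiefly as products of the fat body. Npc2c, of a sterol-binding family, had 2.77, 2.79 and 5.17 CPM in pre-NRC starvation and 3 feeding counts in all, a ratio of 118 (95% counting interval 40.1 to 575), with an adjusted p of 0.00572 in edgeR. The sterol carrier gene ScpX fell, with 76.1, 72.2 and 96.7 CPM in pre-NRC starvation against 156, 148 and 156 CPM in feeding (log2 change −0.91, SE 0.19, adjusted p = 0.0118). The rises numbered 5 and 4 without feeding replicates 1 and 2, and 5 with feeding replicates 1 and 2 summed. The 7 fat body markers summed to 140.5 to 2194 CPM in pre-NRC starvation against 649.6 to 1753 CPM in feeding. Of these markers 1 rose, Rfabg itself, and 0 fell, but 5 of the 7 fell without pre-NRC replicate 3 and 4 with replicates 1 and 2 alone. The storage protein gene Lsp1beta had 1.63, 7.95 and 847 CPM in pre-NRC starvation against 281, 292 and 874 CPM in feeding (log2 change −0.76, SE 1.64, adjusted p = 0.762). Lsp2, another, had 2.02, 22.1 and 728 CPM in pre-NRC starvation against 97.8, 90.2 and 238 CPM in feeding (log2 change 0.82, SE 1.48, adjusted p = 0.712). Pre-NRC starvation replicate 3 and feeding replicate 3 were the highest of their groups in both, and the groups overlapped. Without pre-NRC replicate 3 both passed as falls, with log2 changes of −6.66 (adjusted p = 0.00396) and −3.56 (adjusted p = 0.0389). The part of fat body RNA in the rises of lipoprotein genes was not tested.

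Sugar genes moved both ways: of 18 tested 6 rose (33.3%) and 4 fell (22.2%), against 16.1% and 11.5% of all genes (median log2 change −0.07). The trehalose transporter gene Tret1-1 had 62.4, 68.2 and 41.3 CPM in pre-NRC starvation against 9.32, 10.4 and 13.7 CPM in feeding (log2 change 2.36, SE 0.27, adjusted p = 0.00161). Tps1, the synthase of trehalose, the blood sugar of insects, had 33.9, 24.9 and 153 CPM in pre-NRC starvation against 1.69, 1.54 and 5.17 CPM in feeding (log2 change 4.65, SE 0.83, adjusted p = 0.00655). In both genes every starved library was the higher, and in Tps1 replicate 3 led both groups. CG10924 (Pepck2), of a gluconeogenic enzyme, had 8.11, 9.79 and 17.8 CPM in pre-NRC starvation against 3.38, 3.45 and 4.53 CPM in feeding (log2 change 1.65, SE 0.39, adjusted p = 0.0171). Its call did not hold on leaving out feeding replicates 1 and 2 (adjusted p up to 0.0698), with feeding replicates 1 and 2 summed (0.0678), and in limma on the FPKM values (0.0746). Cabut (cbt), a transcription factor known as a sugar-responsive repressor, fell, with 50.6, 74.8 and 60.9 CPM in pre-NRC starvation against 126, 131 and 173 CPM in feeding (log2 change −1.20, SE 0.28, adjusted p = 0.016). It did not pass on leaving out pre-NRC replicate 1 (adjusted p = 0.0574). The list's rises numbered 2 without feeding replicates 1 and 2, and 2 with feeding replicates 1 and 2 summed. Falls numbered 0 to 2 without pre-NRC replicates 1, 2 and 3 and feeding replicates 1, 2 and 3, each in turn, and 1 with feeding replicates 1 and 2 summed.

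Amino acid genes rose in 12 of 27 cases and fell in 2 (median log2 change 0.74), against 16.1% and 11.5% of all genes. Sardh, the mitochondrial sarcosine dehydrogenase, had 23, 18.4 and 73.5 CPM in pre-NRC starvation against 0.0938, 0.484 and 1.01 CPM in feeding (log2 change 6.16, SE 0.90, adjusted p = 0.0035). Gnmt, which makes sarcosine from glycine, had 59.2, 61.6 and 112 CPM in pre-NRC starvation against 2.59, 2.96 and 5.02 CPM in feeding (log2 change 4.46, SE 0.48, adjusted p = 0.00131). These enzymes stand next to each other in the disposal of methyl groups, and both were higher in every starved library. The proline dehydrogenase gene slgA had 277, 316 and 241 CPM in pre-NRC starvation against 89.6, 70.3 and 101 CPM in feeding (log2 change 1.68, SE 0.21, adjusted p = 0.00229). NAAT1, an amino acid transporter, had 23.3, 44 and 13.4 CPM in pre-NRC starvation against 1.81, 1.09 and 1.35 CPM in feeding (log2 change 4.25, SE 0.58, adjusted p = 0.00296). Among the falls, P5cr, the last enzyme of proline synthesis, had 21.1, 20.5 and 18.4 CPM in pre-NRC starvation against 45.6, 46.7 and 33.4 CPM in feeding (log2 change −1.07, SE 0.26, adjusted p = 0.0191), so the enzymes that open proline breakdown and close proline synthesis moved in opposite directions. The call of P5cr was lost on leaving out any 1 of replicates 1 and 2 of either group (adjusted p up to 0.0727), and with feeding replicates 1 and 2 summed (0.0651). The transaminase gene Got2 (log2 change −1.27, SE 0.27, adjusted p = 0.0128) lost its call on leaving out pre-NRC replicate 2 and feeding replicates 1 and 2 (adjusted p up to 0.0528). Gnmt, slgA, Got2 and P5cr share exon sequence with another gene. The rises numbered 5 and 4 without feeding replicates 1 and 2, and 4 with feeding replicates 1 and 2 summed. Falls numbered 0 to 1 without any 1 of replicates 1 and 2 of either group, 1 with feeding replicates 1 and 2 summed, and 4 with the replicate block.

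Among genes that supply NADPH and nucleotides, falls outnumbered rises. Of 9 genes of the pentose phosphate route and NADPH supply 4 fell and 1 rose (median log2 change −1.01), against 11.5% and 16.1% of all genes. Pgd, the 6-phosphogluconate dehydrogenase, had 42.1, 57.2 and 79.1 CPM in pre-NRC starvation against 202, 195 and 203 CPM in feeding (log2 change −1.75, SE 0.24, adjusted p = 0.00303). Idh, the NADP-dependent isocitrate dehydrogenase, had 233, 241 and 376 CPM in pre-NRC starvation against 711, 719 and 699.8 CPM in feeding (log2 change −1.32, SE 0.25, adjusted p = 0.00799). The transaldolase gene Tal had 68.7, 68.9 and 112 CPM in pre-NRC starvation against 325, 334 and 188 CPM in feeding (log2 change −1.76, SE 0.34, adjusted p = 0.00868), and in these genes every starved library was lower than every feeding one. Of 22 genes of nucleotide synthesis 6 fell (27.3%) and 2 rose (9.09%), against the same shares of all genes (median −0.31). The nucleoside diphosphate kinase gene awd had 801, 661 and 756 CPM in pre-NRC starvation against 2240.2, 2292 and 1613 CPM in feeding (log2 change −1.47, SE 0.26, adjusted p = 0.00638). The deoxynucleoside kinase gene dnk had 16, 14.2 and 35 CPM in pre-NRC starvation against 89, 96.5 and 50.1 CPM in feeding (log2 change −1.85, SE 0.39, adjusted p = 0.0118), and its feeding replicate 3 was nearest to the starved libraries. RnrL, the large subunit of ribonucleotide reductase, had 20.3, 17.9 and 66 CPM in pre-NRC starvation against 133, 136 and 121 CPM in feeding (log2 change −1.90, SE 0.46, adjusted p = 0.019). The call was lost on leaving out any 1 of replicates 1 and 2 of either group (adjusted p up to 0.0589), and with feeding replicates 1 and 2 summed (0.0526). Pgd, awd and dnk share exon sequence with another gene. The falls of the nucleotide list numbered 2 without any 1 of replicates 1 and 2 of either group, 2 with feeding replicates 1 and 2 summed, and 11 with replicates 1 and 2 alone. Rises numbered 0 to 1 without pre-NRC replicates 1 and 2, post-NRC replicates 1 and 2 and feeding replicates 1, 2 and 3, each in turn, and 0 with feeding replicates 1 and 2 summed. The fall count of the pentose phosphate list was 7 with replicates 1 and 2 alone, and its single rise was lost (count 0 without pre-NRC replicates 1 and 2, post-NRC replicate 1 and feeding replicates 1, 2 and 3, each in turn, and 0 with feeding replicates 1 and 2 summed). The 11 glycolytic genes tested had 7 falls and 0 rises, against 11.5% and 16.1% of all genes, with 4 falls without feeding replicate 2.

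In insulin and TOR signalling 6 of 39 genes rose and 3 fell (median log2 change 0.18), which is near the 16.1% and 11.5% of all genes. The gene foxo had 114, 144 and 98.5 CPM in pre-NRC starvation against 34.8, 32.9 and 55.3 CPM in feeding (log2 change 1.54, SE 0.26, adjusted p = 0.00559). CG18619 (REPTOR-BP), the partner of a transcription factor that TOR restrains, had 105, 88.5 and 44 CPM in pre-NRC starvation against 20.8, 14.3 and 17.9 CPM in feeding (log2 change 2.17, SE 0.36, adjusted p = 0.0055). SNF4Agamma, the regulatory gamma subunit of the energy sensor AMPK, had 393, 469 and 210.3 CPM in pre-NRC starvation against 109, 103.7 and 81.5 CPM in feeding (log2 change 1.86, SE 0.34, adjusted p = 0.0069). The groups did not overlap in these genes. Lst8, a subunit of the TOR complexes, fell, with 37.8, 42.4 and 60.6 CPM in pre-NRC starvation against 129, 121 and 96.2 CPM in feeding (log2 change −1.30, SE 0.26, adjusted p = 0.00917). Thor, which encodes the translation inhibitor 4E-BP and is a known foxo target, had 1440.0, 1331 and 1133 CPM in pre-NRC starvation against 1001, 1007 and 2226 CPM in feeding (log2 change −0.12, SE 0.34, adjusted p = 0.823). Its feeding replicate 3 was the highest of all 6 libraries, the other feeding libraries were the lowest, and the groups overlapped. The insulin receptor gene InR had 80.1, 74.6 and 46 CPM in pre-NRC starvation against 16.1, 14 and 67 CPM in feeding (log2 change 1.05, SE 0.57, adjusted p = 0.194), with its feeding replicate 3 again among the starved libraries. Without that library the change of InR was 2.14 (adjusted p = 0.00619), past the threshold. Tor (mTor) had 50.2, 61.8 and 80.2 CPM in pre-NRC starvation against 80.6, 78.7 and 94.6 CPM in feeding (log2 change −0.40, SE 0.23, adjusted p = 0.217) and dm (Myc), a growth-driving transcription factor, 68.3, 30.7 and 74.6 CPM in pre-NRC starvation against 39.1, 49.8 and 120.3 CPM in feeding (log2 change −0.27, SE 0.72, adjusted p = 0.81), and both overlapped. Without feeding replicate 3 the change of Thor was 0.36 and that of dm 0.37, neither past the threshold. The rises of the list numbered 3 without pre-NRC replicate 2 and feeding replicates 1 and 2, 3 with feeding replicates 1 and 2 summed, 11 with the replicate block, and 13 with replicates 1 and 2 alone. Falls numbered 1 without pre-NRC replicate 2 and feeding replicates 1 and 2, 1 with feeding replicates 1 and 2 summed, and 5 with replicates 1 and 2 alone.

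Of all lists the proteasome, the complex that degrades ubiquitin-tagged proteins, had the largest share of genes called lower. Of its 32 genes 29 fell and 0 rose, against 11.5% of all genes called lower, with a median log2 change of −1.24 and a range of −1.53 to −0.50. In 32 of 32 genes all starved libraries lay below all feeding libraries, against 23.1% of all genes tested. The core subunit gene Prosalpha7 had 111, 88.1 and 145 CPM in pre-NRC starvation against 255, 247 and 254 CPM in feeding (log2 change −1.14, SE 0.22, adjusted p = 0.00867). Another core gene, Prosalpha4, had 93.9, 75.9 and 173 CPM in pre-NRC starvation against 343, 343 and 303 CPM in feeding (log2 change −1.53, SE 0.32, adjusted p = 0.0115). Rpt3, an ATPase of the regulatory cap, had 93.1, 102 and 195 CPM in pre-NRC starvation against 324, 334 and 341 CPM in feeding (log2 change −1.36, SE 0.28, adjusted p = 0.0112). In each the starved replicate 3 was the highest of its group. The genes not called were Rpn1 (−1.27, SE 0.43, adjusted p = 0.056), Rpn5 (−1.07, SE 0.36, adjusted p = 0.0556) and Rpn13 (−0.50, SE 0.18, adjusted p = 0.0669), chosen for naming because they missed the threshold. With the replicate block these 3 passed as well, at adjusted p of 0.0111, 0.0179 and 0.0408. The count of falls was 8 to 9 without any 1 of replicates 1 and 2 of either group, and 14 with feeding replicates 1 and 2 summed.

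Lists of protein making differed in their share of falls, against 11.5% over all genes. Of 24 genes of folding in the endoplasmic reticulum 10 fell (median log2 change −0.78), led by the chaperone calnexin, Cnx99A, with 125, 155 and 223 CPM in pre-NRC starvation against 434, 462 and 528 CPM in feeding (log2 change −1.50, SE 0.25, adjusted p = 0.00557). ERp60, a disulfide isomerase, had 677, 551 and 907 CPM in pre-NRC starvation against 1379, 1376 and 2022 CPM in feeding (log2 change −1.16, SE 0.27, adjusted p = 0.0171). It missed the threshold on leaving out pre-NRC replicates 1 and 2 (adjusted p up to 0.0645). The ER count was 1 to 4 without any 1 of replicates 1 and 2 of either group, 5 with feeding replicates 1 and 2 summed, 18 with the replicate block, and 17 with replicates 1 and 2 alone. Falls numbered 5 of 19 for cytoplasmic tRNA synthetases (median −0.48), 6 of 28 for translation factors (−0.37), 4 of 30 for ribosome biogenesis (−0.31) and 1 of 84 for cytoplasmic ribosome proteins (−0.13), with no rise in any of these lists. The share for ribosome biogenesis, 13.3%, was near that of all genes, and the share for ribosome proteins, 1.19%, was below it. The seryl-tRNA synthetase gene CG17259 (SerRS) had 92.7, 103 and 92.9 CPM in pre-NRC starvation against 196, 191 and 164 CPM in feeding (log2 change −0.93, SE 0.18, adjusted p = 0.00793). The elongation factor gene eEF1delta had 127, 111 and 126 CPM in pre-NRC starvation against 337, 326 and 237 CPM in feeding (log2 change −1.30, SE 0.27, adjusted p = 0.0108). For ribosome biogenesis, l(1)1Bi (Mybbp1A) had 23.5, 23.1 and 22.7 CPM in pre-NRC starvation against 42.9, 42.1 and 42 CPM in feeding (log2 change −0.88, SE 0.17, adjusted p = 0.00846). Starved and feeding libraries were separate in these genes. The tRNA synthetase count was 1 to 3 without pre-NRC replicates 1, 2 and 3, post-NRC replicate 1 and feeding replicates 1 and 2, each in turn, 2 with feeding replicates 1 and 2 summed, 8 with the replicate block, and 8 with replicates 1 and 2 alone.

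Ribosome protein genes themselves were near their feeding level. RpL3 had 6284, 6073 and 4438 CPM in pre-NRC starvation against 7271, 7564 and 4583 CPM in feeding (log2 change −0.21, SE 0.31, adjusted p = 0.649), with replicate 3 lowest in both groups and overlapping ranges. The ribosome protein gene called lower, RpS15Ab, is a scarce one, with 52.3, 42.1 and 52 CPM in pre-NRC starvation against 94.9, 94.7 and 85.7 CPM in feeding (log2 change −0.91, SE 0.20, adjusted p = 0.0141). Its call did not hold on leaving out pre-NRC replicate 2 and feeding replicates 1 and 2 (adjusted p up to 0.0578), and with feeding replicates 1 and 2 summed (0.0507). The count of falls among ribosome protein genes was 0 without feeding replicates 1 and 2, 0 with feeding replicates 1 and 2 summed, and 11 with replicates 1 and 2 alone. For translation factors the falls numbered 1 to 2 without any 1 of replicates 1 and 2 of either group, 1 with feeding replicates 1 and 2 summed, and 14 with replicates 1 and 2 alone. For ribosome biogenesis they numbered 1 to 2 without any 1 of replicates 1 and 2 of either group, 1 with feeding replicates 1 and 2 summed, and 7 with replicates 1 and 2 alone.

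**Figure D3:**
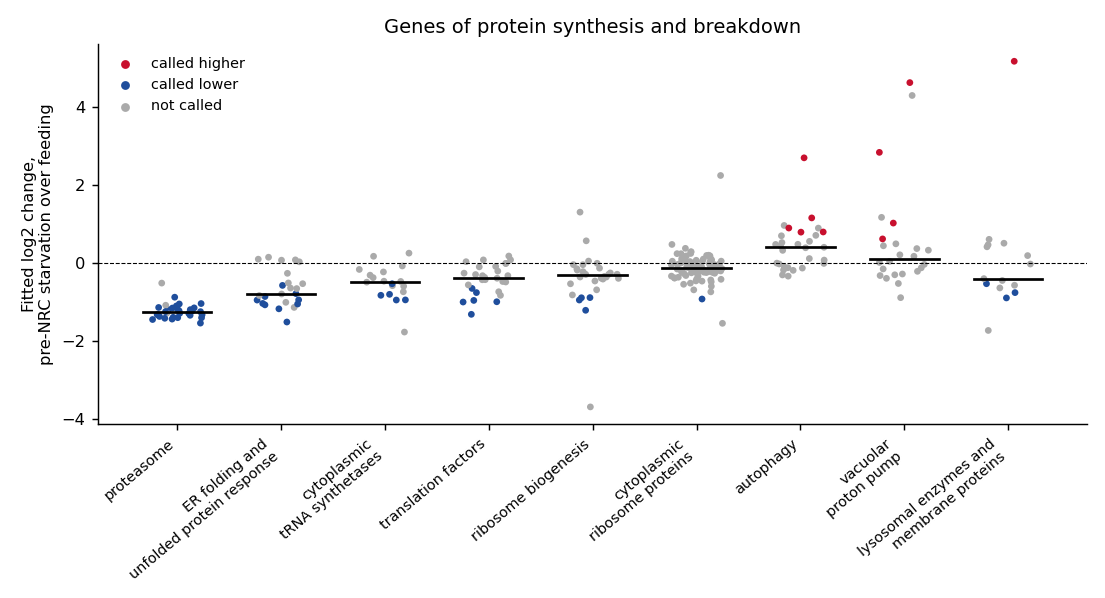
Fitted log2 change of pre-NRC starvation over feeding for each tested gene of 9 lists of protein synthesis and breakdown; red points were called higher, blue lower and grey neither, and the black bars are the medians. The proteasome points lie together around −1.24, the ribosome protein points lie around −0.13, and the autophagy points lie around 0.41.

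The other route of breakdown, autophagy, in which membranes wrap cell contents for digestion in lysosomes, was called higher in 5 of 29 genes and lower in 0 (median log2 change 0.41). That share is close to the 16.1% of all genes called higher. Atg101, of the initiating kinase complex, had 109, 111 and 27.4 CPM in pre-NRC starvation against 14.7, 16.4 and 6.89 CPM in feeding (log2 change 2.71, SE 0.59, adjusted p = 0.0131). Its replicate 3 was lowest in both groups, and the starved libraries stood above all feeding ones. Atg18a, which binds the membrane lipid that Pi3K59F makes, had 233, 257 and 132 CPM in pre-NRC starvation against 97.2, 90.3 and 89.1 CPM in feeding (log2 change 1.17, SE 0.27, adjusted p = 0.0168). It did not pass on leaving out any 1 of replicates 1 and 2 of either group (adjusted p up to 0.0667), and with feeding replicates 1 and 2 summed (0.0651). The ubiquitin-like coat gene Atg8a had 336, 285 and 392 CPM in pre-NRC starvation against 247, 238 and 275 CPM in feeding (log2 change 0.41, SE 0.19, adjusted p = 0.14), and the adaptor gene ref(2)P had 188, 239 and 286 CPM in pre-NRC starvation against 263, 256 and 375 CPM in feeding (log2 change −0.33, SE 0.23, adjusted p = 0.311). Neither passed, and Atg8a was higher in all starved libraries whereas ref(2)P overlapped. The kinase gene Atg1 had 75.5, 104.4 and 44.5 CPM in pre-NRC starvation against 28.5, 30.1 and 55.5 CPM in feeding (log2 change 0.97, SE 0.37, adjusted p = 0.0808), with feeding replicate 3 above starved replicate 3. It passed without pre-NRC replicate 3 (1.24, adjusted p = 0.0289) and without feeding replicate 3 (1.34, adjusted p = 0.0374). The count of rises was 1 without any 1 of replicates 1 and 2 of either group, 8 without pre-NRC replicate 3 and feeding replicate 3, 1 with feeding replicates 1 and 2 summed, 8 with the replicate block, 11 with replicates 1 and 2 alone, and 8 in DESeq2.

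Of 15 lysosomal enzymes and membrane proteins 1 rose and 3 fell, and of 24 subunits of the vacuolar proton pump, which acidifies lysosomes, 4 rose and 0 fell. The pump's share of rises, 16.7%, was near the 16.1% of all genes, and the 3 falls of the lysosomal list rested on most of the libraries. Among the pump genes called higher were subunits at low level: Vha100-5 had 2.56, 10.4 and 17 CPM in pre-NRC starvation against 0.0938, 0.272 and 0.827 CPM in feeding (log2 change 4.64, SE 0.97, adjusted p = 0.0113). Vha36-3 had 3.04, 7.21 and 6.92 CPM in pre-NRC starvation against 1.28, 0.695 and 0.398 CPM in feeding (log2 change 2.85, SE 0.69, adjusted p = 0.0186). Vha100-5 lost its call on leaving out feeding replicate 2 (adjusted p = 0.0518), and Vha36-3 on leaving out pre-NRC replicate 2 and feeding replicate 2 (adjusted p up to 0.0736), and with feeding replicates 1 and 2 summed (0.0542). Among the abundant subunits Vha44 had 166, 193 and 149 CPM in pre-NRC starvation against 108, 103.6 and 117 CPM in feeding (log2 change 0.63, SE 0.18, adjusted p = 0.0298). The call was lost on leaving out any 1 of replicates 1 and 2 of either group (adjusted p up to 0.119), with feeding replicates 1 and 2 summed (0.124), and in limma on the FPKM values (0.191). The falls among lysosomal genes included cathD, of the protease cathepsin D (log2 change −0.75, SE 0.24, adjusted p = 0.0462). It missed the threshold on leaving out pre-NRC replicates 1 and 2, post-NRC replicates 1, 2 and 3 and feeding replicates 1, 2 and 3, each in turn (adjusted p up to 0.149), and in 6 other alternatives (up to 0.0849). The rises of the pump list numbered 0 to 2 without any 1 of replicates 1 and 2 of either group, and 1 with feeding replicates 1 and 2 summed. Falls numbered 6 with replicates 1 and 2 alone. The rises of the lysosome list numbered 0 without pre-NRC replicates 2 and 3 and feeding replicates 1 and 2, 4 without feeding replicate 3, and 0 with feeding replicates 1 and 2 summed. Falls numbered 0 to 1 without pre-NRC replicates 1 and 2, post-NRC replicates 1 and 2 and feeding replicates 1, 2 and 3, each in turn, 1 with feeding replicates 1 and 2 summed, 6 with the replicate block, and 6 with replicates 1 and 2 alone.

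Most of the antimicrobial peptide genes tested were called higher. Of 24 tested genes of antimicrobial peptides and bomanins, small secreted peptides of the Toll response, 20 rose and 0 fell, with a median log2 change of 6.47, or 6.23 with the 7 genes without feeding counts set at their bound. The share of rises, 83.3%, stood against 16.1% of all genes. The other 8 members had too few counts for the test. A gene with no feeding count could enter the test only through starved libraries, where it was higher. The share and the median therefore lean upward and are no measure of the list against other lists. The antifungal peptide gene Drs had 25.1, 17.1 and 31.1 CPM in pre-NRC starvation against 0.281, 0.302 and 0.337 CPM in feeding (log2 change 6.30, SE 0.38, adjusted p = 0.000133). The antibacterial gene Dpt (DptA) had 3.11, 4.48 and 4.64 CPM in pre-NRC starvation against 0.281, 0.181 and 0.245 CPM in feeding (log2 change 4.09, SE 0.52, adjusted p = 0.00257). The bomanin gene IM1 (BomS1) had 9.38, 6.44 and 6.06 CPM in pre-NRC starvation and no count in feeding. Its relative IM2 (BomS2) had 11.5, 6.47 and 5.64 CPM in pre-NRC starvation and no count in feeding. They were at least 237-fold and 255-fold higher, with a floor of 3 counts over the feeding group, at adjusted p of 0.00244 and 0.00135. Although the ratios were large, the levels were modest beside those of the hormone genes, and all starved libraries exceeded all feeding libraries in each. The list's rises numbered 13 without feeding replicate 2, and 11 in limma-voom.

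Of 30 genes of immune recognition and of the Toll and Imd pathways 15 rose and 0 fell (median log2 change 1.50), against 16.1% and 11.5% of all genes. No feeding count was found for 2 of the 30. These could enter the test only through starved libraries, so the share of rises leans upward. PGRP-LB, an enzyme that cleaves bacterial peptidoglycan and dampens the Imd pathway, had 235, 291 and 197 CPM in pre-NRC starvation against 10.3, 12.1 and 5.36 CPM in feeding (log2 change 4.70, SE 0.72, adjusted p = 0.00419). PGRP-LC, the Imd receptor, had 61.4, 87.3 and 32.5 CPM in pre-NRC starvation against 10.3, 12.6 and 8.17 CPM in feeding (log2 change 2.54, SE 0.36, adjusted p = 0.00319). PGRP-LF, an inhibitory receptor, had 42.3, 43 and 7.56 CPM in pre-NRC starvation against 0.313, 0.726 and 0.735 CPM in feeding (log2 change 5.70, SE 0.85, adjusted p = 0.00368). Both activating and inhibiting receptors were thus higher in every starved library. Dif, a transcription factor of the Toll pathway, had 126, 166 and 83.7 CPM in pre-NRC starvation against 28.3, 38.3 and 39.5 CPM in feeding (log2 change 1.83, SE 0.27, adjusted p = 0.00368). Of the pathway's inner parts, imd (−0.55, SE 0.22, adjusted p = 0.0936), key (0.03, SE 0.21, adjusted p = 0.936) and Tl (−0.42, SE 0.53, adjusted p = 0.593) did not pass. PGRP-LF and Dif share exon sequence with another gene. The count of rises was not moved by over 1.5 times in any fit without 1 library.

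Some blood cell markers were also higher. Of 10 hemocyte markers 3 rose and 0 fell (median log2 change 0.33), against 16.1% and 11.5% of all genes. They summed to 1906 to 3188 CPM in pre-NRC starvation against 694 to 1929 CPM in feeding, where replicate 3 reached into the starved range. The clotting protein gene Hml had 2052, 2175 and 1132 CPM in pre-NRC starvation against 153, 146 and 445 CPM in feeding (log2 change 2.85, SE 0.52, adjusted p = 0.00708). The blood cell factor srp had 77.3, 73.6 and 52.4 CPM in pre-NRC starvation against 8.35, 10.9 and 23 CPM in feeding (log2 change 2.27, SE 0.40, adjusted p = 0.00655), each higher in all starved libraries and, within feeding, highest in replicate 3. The marker He had 137, 125 and 42.8 CPM in pre-NRC starvation against 11, 12.2 and 27.5 CPM in feeding (log2 change 2.59, SE 0.58, adjusted p = 0.0143). Its call did not hold on leaving out feeding replicates 1 and 2 (adjusted p up to 0.0612), and with feeding replicates 1 and 2 summed (0.0598). The receptor gene eater (0.08, SE 0.68, adjusted p = 0.942), the matrix peroxidase gene Pxn (0.17, SE 0.43, adjusted p = 0.801) and the crystal cell genes lz (0.49, SE 0.60, adjusted p = 0.569) and PPO1 (−1.24, SE 0.43, adjusted p = 0.0613) did not pass. All 10 markers had counts in at least 1 of the 9 libraries, and the part of blood cells in the immune rises was not tested. The marker count was 5 without feeding replicate 3, and 6 with replicates 1 and 2 alone.

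Cytochrome P450 genes outside ecdysone synthesis, many of which are detoxification enzymes, rose in 34 of 69 cases and fell in 2 (median log2 change 2.35). The shares of all genes were 16.1% and 11.5%, and 11 further members had too few counts. Of the 69 tested, 1 had no feeding count and could enter the test only through starved libraries. Cyp28a5 had 364, 332 and 125 CPM in pre-NRC starvation against 3, 2.66 and 4.13 CPM in feeding (log2 change 6.39, SE 0.70, adjusted p = 0.00133). Cyp4e3 had 21.2, 24.6 and 18.9 CPM in pre-NRC starvation against 0.406, 0.665 and 0.184 CPM in feeding (log2 change 5.68, SE 0.62, adjusted p = 0.00131). Cyp12a5 had 23.3, 21.5 and 19.7 CPM in pre-NRC starvation against 3.22, 3.99 and 3.06 CPM in feeding (log2 change 2.65, SE 0.29, adjusted p = 0.00128). The groups were separate in each, with starved replicate 3 the lowest of its group. Cyp4g15 went the other way, with 5.61, 6.81 and 5.25 CPM in pre-NRC starvation against 17.9, 20.4 and 21.8 CPM in feeding (log2 change −1.76, SE 0.27, adjusted p = 0.00377). The P450 rises numbered 20 and 17 without feeding replicates 1 and 2, and 21 with feeding replicates 1 and 2 summed. Falls numbered 1 without pre-NRC replicate 2 and feeding replicates 1 and 2, and 4 without pre-NRC replicate 3. Glutathione S-transferase genes, another detoxification family, did not share the direction: 6 of 29 fell and 1 rose (median −0.27), against 11.5% and 16.1% of all genes. GstD1 had 558, 444 and 335 CPM in pre-NRC starvation against 1201, 1239 and 946 CPM in feeding (log2 change −1.34, SE 0.27, adjusted p = 0.0102). GstT4 had 209, 199 and 290.0 CPM in pre-NRC starvation against 79.7, 82 and 55.6 CPM in feeding (log2 change 1.68, SE 0.29, adjusted p = 0.00559). GstE14 (Noppera-bo), known to be needed for ecdysone synthesis in the prothoracic gland, had 179, 178 and 112 CPM in pre-NRC starvation against 454, 453 and 246 CPM in feeding (log2 change −1.29, SE 0.36, adjusted p = 0.0288). It did not pass on leaving out pre-NRC replicates 1, 2 and 3 and feeding replicates 1 and 2, each in turn (adjusted p up to 0.0974), and with feeding replicates 1 and 2 summed (0.0898). The falls of the transferase list numbered 1 without pre-NRC replicate 2 and feeding replicates 1 and 2, 1 with feeding replicates 1 and 2 summed, and 10 with replicates 1 and 2 alone. Its rises numbered 4 in DESeq2.

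Heat shock genes were called lower in 4 of 18 cases (22.2%) and higher in 0, against 11.5% and 16.1% of all genes (median log2 change −0.66). Hsp67Bb (CG4456) had 9.47, 8.78 and 10.9 CPM in pre-NRC starvation against 170.3, 159 and 70.5 CPM in feeding (log2 change −3.77, SE 0.43, adjusted p = 0.00143), but it overlaps Hsp22 in the annotation and the counts of the 2 genes are uncertain. The small heat shock gene Hsp23 had 107, 148 and 397 CPM in pre-NRC starvation against 720.4, 723 and 739.7 CPM in feeding (log2 change −1.74, SE 0.44, adjusted p = 0.0209), with starved replicate 3 highest of its group, and its call was lost on leaving out pre-NRC replicate 2 and feeding replicates 1 and 2 (adjusted p up to 0.0757), and with feeding replicates 1 and 2 summed (0.0551). The count of falls was 1 to 2 without any 1 of replicates 1 and 2 of either group, 1 with feeding replicates 1 and 2 summed, and 11 with replicates 1 and 2 alone.

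Among genes of peptide signalling and regulated secretion, rises outnumbered falls. Of 25 genes of secretion and vesicle fusion 9 rose and 0 fell (median log2 change 0.94), against 16.1% and 11.5% of all genes. Snap25, of the membrane fusion machinery, had 609.9, 598 and 508 CPM in pre-NRC starvation against 92.2, 85.8 and 163 CPM in feeding (log2 change 2.33, SE 0.29, adjusted p = 0.00253). The prohormone convertase gene amon had 127, 115.5 and 111 CPM in pre-NRC starvation against 50.6, 48.2 and 38.6 CPM in feeding (log2 change 1.36, SE 0.17, adjusted p = 0.00257). Pal2, of peptide amidation, had 244, 206 and 235 CPM in pre-NRC starvation against 46.3, 44.4 and 69.2 CPM in feeding (log2 change 2.10, SE 0.29, adjusted p = 0.00303). The vesicle protein gene nSyb had 44.5, 44.8 and 36.4 CPM in pre-NRC starvation against 16, 16.8 and 22.5 CPM in feeding (log2 change 1.18, SE 0.22, adjusted p = 0.00799). In these genes the groups were separate, and amon and Pal2 are also among the corpora cardiaca markers, whose summed levels are given with Akh. The count of rises was 17 with replicates 1 and 2 alone.

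Of 28 peptide hormone genes 9 rose and 1 fell (median log2 change 1.90), against 16.1% and 11.5% of all genes. No feeding count was found for 3 of the 28. These could enter the test only through starved libraries, so the share of rises leans upward. Proc, of the neuropeptide proctolin, had 78.6, 44.3 and 85.2 CPM in pre-NRC starvation against 0.907, 0.302 and 4.81 CPM in feeding (log2 change 5.11, SE 0.89, adjusted p = 0.0059). CG8317 (Lst), of limostatin, a corpora cardiaca hormone that lowers insulin release, had 390.4, 392 and 188 CPM in pre-NRC starvation against 111, 116 and 123 CPM in feeding (log2 change 1.47, SE 0.32, adjusted p = 0.0127). Ptth, which encodes the brain hormone that drives ecdysone synthesis, had 4.64, 4.17 and 3.25 CPM in pre-NRC starvation against 0.907, 0.968 and 0.735 CPM in feeding (log2 change 2.20, SE 0.50, adjusted p = 0.0155). The starved libraries were the higher in each. CG8317 lost its call on leaving out feeding replicates 1 and 2 (adjusted p up to 0.0555), and with feeding replicates 1 and 2 summed (0.0551). So did Ptth on leaving out feeding replicates 1 and 2 (adjusted p up to 0.0601), and with feeding replicates 1 and 2 summed (0.0583). Ilp6, an insulin-like peptide, was the fall, with 18.8, 25.8 and 33.9 CPM in pre-NRC starvation against 59.5, 54.8 and 71.1 CPM in feeding (log2 change −1.24, SE 0.24, adjusted p = 0.00902). The rises numbered 1 to 4 without any 1 of replicates 1 and 2 of either group, 2 with feeding replicates 1 and 2 summed, and 14 with replicates 1 and 2 alone.

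Receptor genes rose in 11 of 26 cases with 0 falls (median log2 change 1.38), against 16.1% and 11.5% of all genes. CrzR, the receptor of corazonin, had 8.89, 11.5 and 15.1 CPM in pre-NRC starvation against 0.625, 0.484 and 1.84 CPM in feeding (log2 change 3.59, SE 0.59, adjusted p = 0.00506). CCHa1-R, of the peptide CCHamide-1, had 15.6, 12.1 and 5.67 CPM in pre-NRC starvation against 0.625, 0.756 and 1.87 CPM in feeding (log2 change 3.35, SE 0.57, adjusted p = 0.00559). The serotonin receptor 5-HT7 had 4.7, 5.68 and 6.22 CPM in pre-NRC starvation against 0.125, 0.302 and 0.551 CPM in feeding (log2 change 4.07, SE 0.70, adjusted p = 0.00585). All were under 2 CPM in every feeding library and higher in all starved libraries. The rises numbered 5 to 7 without any 1 of replicates 1 and 2 of either group, and 5 with feeding replicates 1 and 2 summed. Of 7 neuron markers 4 rose (2 in limma-voom and in limma on the FPKM values), and they summed to 78.7 to 97.7 CPM in pre-NRC starvation against 34.8 to 84.4 CPM in feeding. VGlut, of glutamate neurons, had 2.11, 1.99 and 2.14 CPM in pre-NRC starvation against 0.219, 0.212 and 0.0918 CPM in feeding (log2 change 3.55, SE 0.60, adjusted p = 0.00557), while elav (−0.45, SE 0.97, adjusted p = 0.761), the general neuron marker, did not pass. Of 7 glia markers 2 rose. Their part in the rises of peptide and receptor genes was not tested. The rises of neuron markers numbered 2 without any 1 of replicates 1 and 2 of either group, and 2 with feeding replicates 1 and 2 summed, and those of glia markers 0 to 1 without any 1 of replicates 1 and 2 of either group or without feeding replicate 3, and 0 with feeding replicates 1 and 2 summed.

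The lists of signalling between cells had shares of called genes near the 27.5% of all genes, so their counts say little about the lists, and single members are given here. Of 25 genes of the receptor kinase pathways that include the prothoracicotropic hormone receptor and the EGF receptor 4 rose and 2 fell (median log2 change −0.17). The EGF ligand gene spi had 442, 444 and 298 CPM in pre-NRC starvation against 125, 121 and 150.1 CPM in feeding (log2 change 1.58, SE 0.22, adjusted p = 0.00321). The PVR ligand genes parted: Pvf1 had 9.25, 10.4 and 8.78 CPM in pre-NRC starvation against 1.28, 1.75 and 2.02 CPM in feeding (log2 change 2.49, SE 0.37, adjusted p = 0.00352). Pvf2 had 43.9, 43.4 and 58 CPM in pre-NRC starvation against 131, 114 and 141 CPM in feeding (log2 change −1.41, SE 0.21, adjusted p = 0.00395). Pvf3 went with Pvf2, with 21.4, 14.9 and 21 CPM in pre-NRC starvation against 37.3, 34.2 and 71.3 CPM in feeding (log2 change −1.32, SE 0.31, adjusted p = 0.0171). The call was lost on leaving out pre-NRC replicate 2 (adjusted p = 0.0646). Their receptor gene Pvr had 153, 382 and 211 CPM in pre-NRC starvation against 44.2, 43.7 and 101 CPM in feeding (log2 change 1.98, SE 0.46, adjusted p = 0.0158). It missed the threshold on leaving out pre-NRC replicate 2 and feeding replicates 1 and 2 (adjusted p up to 0.0651), and with feeding replicates 1 and 2 summed (0.0634). The groups did not overlap in any of these 5 genes. The receptor gene tor had 146, 136 and 134 CPM in pre-NRC starvation against 101, 103 and 184 CPM in feeding (log2 change 0.10, SE 0.28, adjusted p = 0.82), with feeding replicate 3 above all starved libraries and the other feeding libraries below them. The rises numbered 2 without feeding replicate 2, and 8 with replicates 1 and 2 alone. Falls numbered 1 without pre-NRC replicate 2, and 5 without pre-NRC replicate 3.

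In the TGF-beta family 4 of 17 genes rose and 0 fell (median log2 change 0.07). Dad, the inhibitory Smad, which BMP signalling induces, had 63.2, 64.2 and 56.1 CPM in pre-NRC starvation against 27.4, 27.1 and 26.2 CPM in feeding (log2 change 1.18, SE 0.16, adjusted p = 0.00302). shn, a cofactor of that pathway, had 142, 175 and 130.2 CPM in pre-NRC starvation against 78.2, 81 and 70.7 CPM in feeding (log2 change 0.96, SE 0.18, adjusted p = 0.00815). The BMP ligand gene dpp had 15.6, 16 and 10.8 CPM in pre-NRC starvation against 6.94, 6.47 and 7.93 CPM in feeding (log2 change 0.99, SE 0.26, adjusted p = 0.0229). Its call did not hold on leaving out any 1 of replicates 1 and 2 of either group (adjusted p up to 0.0954), and with feeding replicates 1 and 2 summed (0.0955). All were higher in each starved library. In the Notch pathway 4 of 17 genes fell and 0 rose (median −0.28). The ligand gene Dl had 6.63, 5.74 and 12.4 CPM in pre-NRC starvation against 31.5, 20.4 and 37.8 CPM in feeding (log2 change −1.86, SE 0.35, adjusted p = 0.00809), and the target gene E(spl)m3-HLH had 6.27, 12 and 16.2 CPM in pre-NRC starvation against 41.9, 37 and 26.2 CPM in feeding (log2 change −1.61, SE 0.37, adjusted p = 0.0154). It did not pass on leaving out pre-NRC replicate 2 and feeding replicates 1 and 2 (adjusted p up to 0.0566), and with feeding replicates 1 and 2 summed (0.0501). Of 9 clock genes 1 rose and 2 fell. The activator gene cyc had 22, 20.8 and 32.8 CPM in pre-NRC starvation against 56, 55.7 and 55.5 CPM in feeding (log2 change −1.14, SE 0.21, adjusted p = 0.00703) and jet, of the light input, 28.6, 27.7 and 17.2 CPM in pre-NRC starvation against 8.1, 8.19 and 6.43 CPM in feeding (log2 change 1.69, SE 0.34, adjusted p = 0.0102), both with separate groups. The TGF-beta rises numbered 2 without any 1 of replicates 1 and 2 of either group, and 2 with feeding replicates 1 and 2 summed. Falls numbered 3 with replicates 1 and 2 alone. The Notch falls numbered 1 to 2 without any 1 of replicates 1 and 2 of either group or without feeding replicate 3, and 1 with feeding replicates 1 and 2 summed. The clock falls numbered 1 without pre-NRC replicates 1 and 2, post-NRC replicates 1, 2 and 3 and feeding replicates 1 and 2, each in turn, 1 with feeding replicates 1 and 2 summed, and 4 with replicates 1 and 2 alone.

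**Figure D4:**
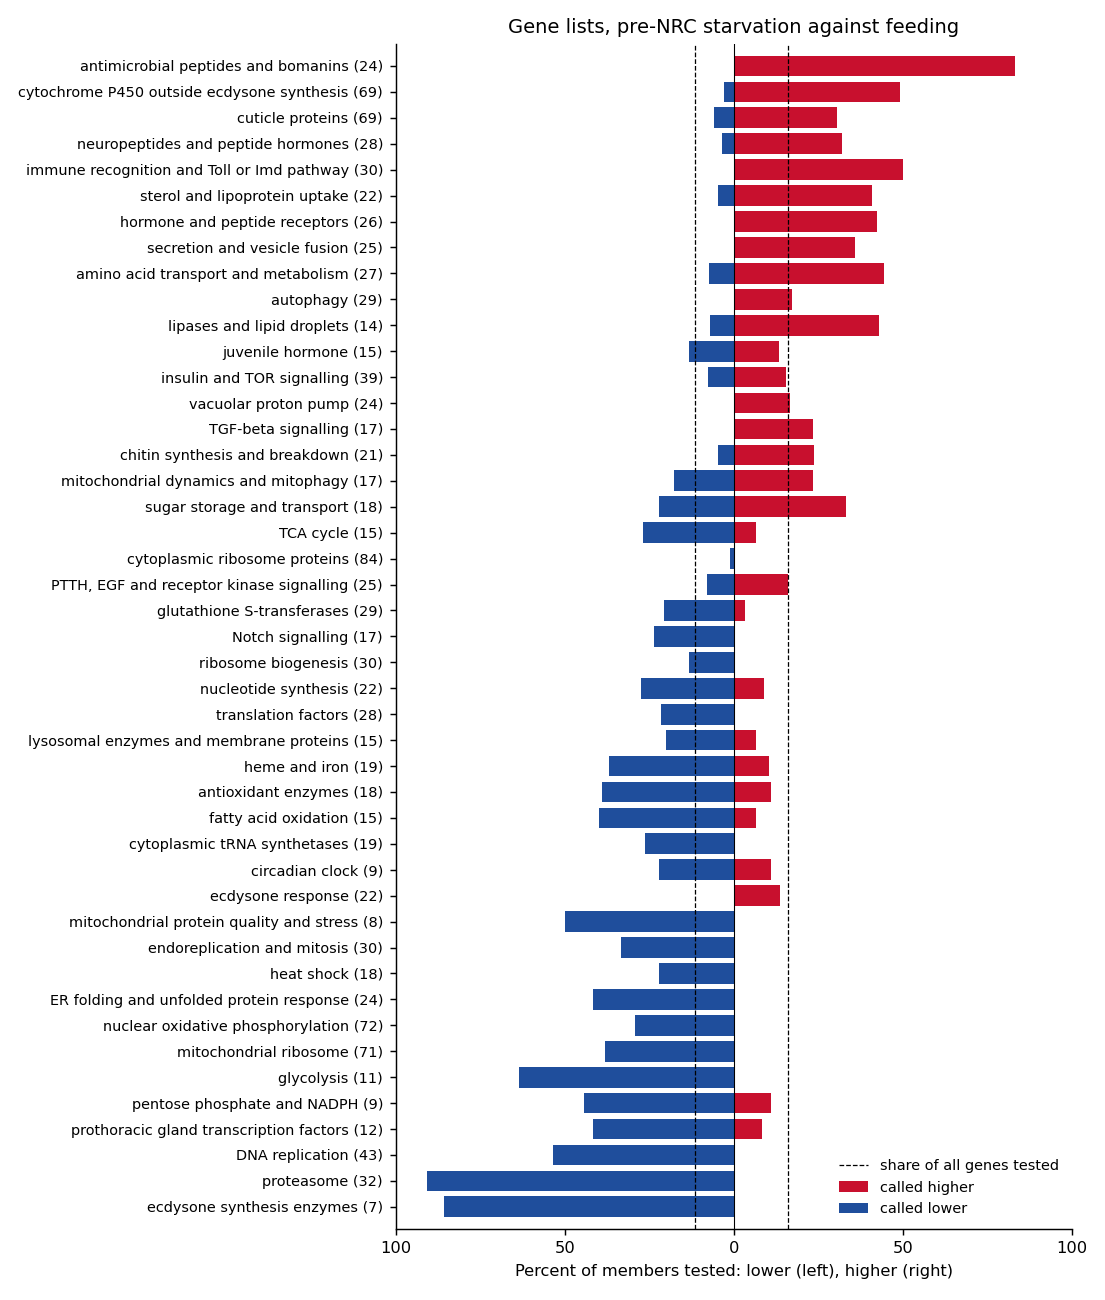
Percent of the tested members of each gene list called higher (red, to the right) or lower (blue, to the left) in pre-NRC starvation, ordered by median log2 change, with the number tested in parentheses; the dashed lines mark the shares over all genes, 16.1% higher and 11.5% lower. Antimicrobial peptides stand at the top with 20 of 24 higher, and the proteasome lies near the bottom with 29 of 32 lower. Of those 24 genes 7 had no feeding count and could enter the test only through starved libraries. The place of that list is therefore no measure of it against other lists.

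Among genes of the cuticle, the chitin coat that each stage rebuilds, rises were more frequent than over all genes and falls less frequent. Of 69 cuticle protein genes tested 21 rose (30.4%) and 4 fell (5.8%), against 16.1% and 11.5% of all genes (median log2 change 2.04). Another 53 members had too few counts. Of the 69 tested, 1 had no feeding count and could enter the test only through starved libraries. Cpr65Ay had 71.6, 37.5 and 16 CPM in pre-NRC starvation against 0.844, 0.242 and 0.704 CPM in feeding (log2 change 6.12, SE 1.04, adjusted p = 0.00557). Cpr31A had 21.1, 27.9 and 8.28 CPM in pre-NRC starvation against 0.844, 1.57 and 0.918 CPM in feeding (log2 change 4.10, SE 0.67, adjusted p = 0.00506). Cpr51A had 1.78, 1.38 and 4.78 CPM in pre-NRC starvation against 33.9, 30.4 and 25.3 CPM in feeding (log2 change −3.49, SE 0.47, adjusted p = 0.00282), and the larval cuticle genes Lcp65Ab2 and Lcp65Ab1, close copies that share reads, fell by similar amounts (−2.77, SE 0.46 and −2.63, SE 0.48). The libraries of the groups were separate in each. Of 21 genes of chitin synthesis and breakdown 5 rose (23.8%) and 1 fell (4.76%), against the same shares of all genes (median −0.06). The chitin deacetylase gene Cda4 had 24.1, 20.3 and 31 CPM in pre-NRC starvation against 164, 168 and 153 CPM in feeding (log2 change −2.69, SE 0.24, adjusted p = 0.000587). Gfat1, the entry enzyme of the sugar precursor of chitin, had 162, 178 and 137 CPM in pre-NRC starvation against 51.5, 50 and 78 CPM in feeding (log2 change 1.41, SE 0.23, adjusted p = 0.00493). The imaginal disc growth factor Idgf1, a chitinase relative, had 93.7, 95.6 and 34.1 CPM in pre-NRC starvation against 2.72, 1.72 and 8.69 CPM in feeding (log2 change 4.09, SE 0.68, adjusted p = 0.00541). The cuticle rises numbered 5 to 9 without any 1 of replicates 1 and 2 of either group, and 6 with feeding replicates 1 and 2 summed. Falls numbered 8 without pre-NRC replicate 3, 7 with the replicate block, and 7 in DESeq2. The chitin list's rises numbered 3 without any 1 of replicates 1 and 2 of either group, and 3 with feeding replicates 1 and 2 summed. Falls numbered 5 without pre-NRC replicate 3, and 4 with the replicate block.

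Among the largest falls were genes timed to the end of larval life. The salivary glue gene Sgs5 had 0, 2.33 and 4.03 CPM in pre-NRC starvation against 361, 364 and 43.2 CPM in feeding (log2 change −6.91, SE 1.80, adjusted p = 0.0235). Sgs8, another glue gene, had 0.482, 0.399 and 3.56 CPM in pre-NRC starvation against 112, 118 and 24.3 CPM in feeding (log2 change −5.83, SE 1.54, adjusted p = 0.0248). Eig71Ee, an ecdysone-induced late gene of the salivary gland, had 0.693, 0.706 and 12.4 CPM in pre-NRC starvation against 642, 652 and 65.3 CPM in feeding (log2 change −6.62, SE 1.93, adjusted p = 0.0345). In all of these feeding replicate 3 was the lowest of its group and starved replicate 3 the highest, though the groups stayed apart. Sgs5 lost its call on leaving out pre-NRC replicate 2 and feeding replicates 1 and 2 (adjusted p up to 0.0817), and with feeding replicates 1 and 2 summed (0.0595). So did Sgs8 on leaving out any 1 of replicates 1 and 2 of either group (adjusted p up to 0.0834), and with feeding replicates 1 and 2 summed (0.0612), and Eig71Ee on leaving out any 1 of replicates 1 and 2 of either group (adjusted p up to 0.103), with feeding replicates 1 and 2 summed (0.076), and in limma-voom (0.0609). The 6 glue genes taken as salivary gland markers summed to 3.86 to 64.5 CPM in pre-NRC starvation against 245 to 1888 CPM in feeding, and 2 of them were called, with 0 to 1 without any 1 of replicates 1 and 2 of either group, 4 without pre-NRC replicate 3 and post-NRC replicates 2 and 3, 0 with feeding replicates 1 and 2 summed, 5 with the replicate block, and 4 in limma on the FPKM values. The part of salivary tissue in these falls was not tested. The larval cuticle gene Lcp3 had 0.271, 2.67 and 17.8 CPM in pre-NRC starvation against 103, 106 and 185 CPM in feeding (log2 change −4.24, SE 1.14, adjusted p = 0.0262). The call was lost on leaving out pre-NRC replicate 2 and feeding replicates 1, 2 and 3 (adjusted p up to 0.0883), with feeding replicates 1 and 2 summed (0.0566), and with only the 6 libraries (0.0536). PebIII (EbpIII), a gene first described in the ejaculatory bulb, had 22.4, 17.3 and 54.3 CPM in pre-NRC starvation against 458, 452 and 249 CPM in feeding (log2 change −3.62, SE 0.47, adjusted p = 0.00257). mey had 0.151, 1.35 and 2.53 CPM in pre-NRC starvation against 16.8, 14.6 and 21.6 CPM in feeding (log2 change −3.71, SE 0.80, adjusted p = 0.0127). The mitosis gene bora had no count in pre-NRC starvation and 8.1, 6.86 and 3.92 CPM in feeding, at least 213-fold lower (adjusted p = 0.0255). It missed the threshold on leaving out any 1 of replicates 1 and 2 of either group (adjusted p up to 0.0664), and with feeding replicates 1 and 2 summed (0.062).

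Among the largest rises, besides Lip3 and the bomanins, were digestive genes. The maltase gene Mal-A3 had 14.5, 51.5 and 53.8 CPM in pre-NRC starvation and 3 feeding counts in all, a ratio of 1312 (95% counting interval 449 to 6366) (adjusted p = 0.000794). Jon99Ci, a serine protease of the gut, had 1.93, 38.3 and 18.3 CPM in pre-NRC starvation and no feeding count, at least 630.3-fold higher (adjusted p = 0.00663). Its call did not hold in limma-voom (0.0811). Cht9, a chitinase, had 7.36, 273 and 34.8 CPM in pre-NRC starvation against 0.156, 0.0907 and 0 CPM in feeding (log2 change 10.26, SE 1.76, adjusted p = 0.00573). It did not pass in limma-voom (0.185). Uro, the urate oxidase of the excretory tubules, had 1.96, 0.614 and 56.1 CPM in pre-NRC starvation against 0, 0.0907 and 0 CPM in feeding, nearly all of it in starved replicate 3, a ratio of 674 (95% counting interval 230.4 to 3272) (adjusted p = 0.0229). Its call was lost on leaving out pre-NRC replicate 3 and feeding replicates 1, 2 and 3 (adjusted p up to 0.0837), and in 4 other alternatives (up to 0.224). Mur18B, of a mucin-related protein, had 21.1, 5.22 and 1022 CPM in pre-NRC starvation against 0.156, 0.212 and 0.214 CPM in feeding (adjusted p = 0.0121), likewise highest by far in starved replicate 3, and lost its call on leaving out feeding replicates 1 and 2 (adjusted p up to 0.0527), with feeding replicates 1 and 2 summed (0.0502), in limma on the FPKM values (0.0516), and in limma-voom (0.306). The starved libraries differed most in Mur18B, Uro and Cht9, and the groups did not overlap in any of these 5 genes.

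Gut markers were higher with them. Of 7 gut markers 5 rose, and they summed to 156 to 343 CPM in pre-NRC starvation against 9.32 to 45.4 CPM in feeding. The amylase gene Amy-p had 34, 135 and 117 CPM in pre-NRC starvation against 2.25, 2.69 and 0.949 CPM in feeding (log2 change 5.60, SE 1.12, adjusted p = 0.00991). The trypsin gene epsilonTry had 79.3, 36.1 and 142 CPM in pre-NRC starvation against 1.06, 2.42 and 10.7 CPM in feeding (log2 change 4.18, SE 0.91, adjusted p = 0.0133), and the call of epsilonTry was lost on leaving out feeding replicate 2 (adjusted p = 0.0551). The gut sterol transporter Npc1b (−0.21, SE 0.58, adjusted p = 0.813) and betaTry (0.30, SE 1.92, adjusted p = 0.921) did not pass. The count of rises was 1 to 3 without any 1 of replicates 1 and 2 of either group or without feeding replicate 3, and 2 with feeding replicates 1 and 2 summed. The part of gut material in the rises of digestive genes was not tested.

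**Figure D5:**
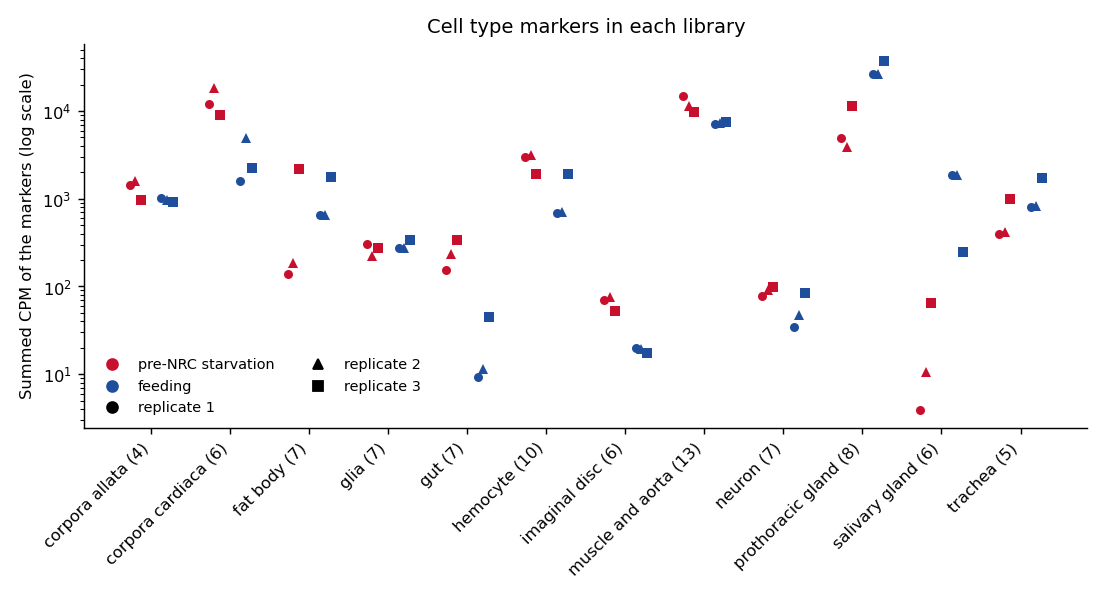
Summed CPM of the markers of each tissue in each library on a log scale, in pre-NRC starvation (red, left) and feeding (blue, right), with the number of markers in parentheses; symbols are the replicates. Prothoracic gland markers are lower and corpora cardiaca, gut, muscle and imaginal disc markers higher in all 3 pre-NRC starvation libraries, and salivary gland markers are lower in all 3. The corpora cardiaca sums are mostly Akh and the prothoracic gland sums mostly ecdysone enzymes.

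Markers of tissues beside the gland were thus not equal between the groups. Muscle and aorta markers summed to 9837 to 14974 CPM in pre-NRC starvation against 7044 to 7499 CPM in feeding, and 7 of 13 rose, for example up, of troponin T, with 1037, 932 and 689 CPM in pre-NRC starvation against 392, 421 and 390.5 CPM in feeding (log2 change 1.14, SE 0.32, adjusted p = 0.0287). That call was lost on leaving out pre-NRC replicates 1 and 2 and feeding replicates 1, 2 and 3, each in turn (adjusted p up to 0.0986), and with feeding replicates 1 and 2 summed (0.0973), and the count of rises was 0 to 1 without any 1 of replicates 1 and 2 of either group or without feeding replicate 3, and 0 with feeding replicates 1 and 2 summed. The aorta runs through the ring gland, so muscle cells can come with a dissected gland. Imaginal disc markers summed to 52.4 to 76 CPM in pre-NRC starvation against 17.6 to 19.9 CPM in feeding, and 2 of 6 rose, with ey, an eye gene, at 25.3, 27.9 and 10.1 CPM in pre-NRC starvation against 3.28, 3.02 and 1.87 CPM in feeding (log2 change 2.95, SE 0.55, adjusted p = 0.00768). The count of disc markers was 1 without any 1 of replicates 1 and 2 of either group, and 1 with feeding replicates 1 and 2 summed. Tracheal markers summed to 401 to 988 CPM in pre-NRC starvation against 802 to 1720.4 CPM in feeding with 0 rises and 0 falls of 5 in edgeR (at an unadjusted p under 0.05, 2 of 5 were lower, and 1 in DESeq2, 1 in limma-voom and 0 in limma on the FPKM values), and falls numbered 3 without pre-NRC replicate 3, and 5 with the replicate block. In 0 of the 12 marker lists was a marker without counts in all 9 libraries. How far other tissues entered each of the results above was not tested.

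The remaining lists, which cover mitochondria, the cell cycle and hormone response, are given by their counts in the order falls then rises. Over all genes tested the shares were 11.5% and 16.1% in that order. The mitochondrial ribosome had 27 and 0 of 71 (median log2 change −0.88), with 8, 17, 6 and 6 without pre-NRC replicates 2 and 3 and feeding replicates 1 and 2, 6 with feeding replicates 1 and 2 summed, 55 with the replicate block, 56 with replicates 1 and 2 alone, and 41 in limma on the FPKM values. Nuclear genes of oxidative phosphorylation had 21 and 0 of 72 (−0.81), with 3 to 10 without pre-NRC replicates 1, 2 and 3 and feeding replicates 1 and 2, each in turn, 3 with feeding replicates 1 and 2 summed, 51 with the replicate block, 55 with replicates 1 and 2 alone, and 32 both in DESeq2 and in limma on the FPKM values. DNA replication had 23 and 0 of 43 (−1.16), with 6 to 9 without any 1 of replicates 1 and 2 of either group, and 8 with feeding replicates 1 and 2 summed. For endoreplication and mitosis the counts were 10 and 0 of 30 (−0.61), with falls of 1 to 6 without pre-NRC replicates 1 and 2, post-NRC replicate 2 and feeding replicates 1, 2 and 3, each in turn, 1 with feeding replicates 1 and 2 summed, and 16 with replicates 1 and 2 alone. They were 4 and 1 of 15 for the TCA cycle (−0.09), 6 and 1 of 15 for fatty acid oxidation (−0.46) and 7 and 2 of 18 for antioxidant enzymes (−0.44). They were 7 and 2 of 19 for heme and iron (−0.41), 4 and 0 of 8 for mitochondrial protein quality (−0.60) and 3 and 4 of 17 for mitochondrial dynamics and mitophagy (−0.07). With feeding replicates 1 and 2 summed, the falls of these 6 lists numbered 2, 2, 5, 3, 1 and 2. Rises numbered 0, 0, 1, 2, 0 and 2. On leaving out any 1 of replicates 1 and 2 of either group the falls were 2 for the TCA cycle, 2 to 3 for fatty acid oxidation, 3 to 4 for heme and iron and 1 to 2 for mitochondrial protein quality. The mitofusin gene Marf, whose product joins mitochondria, had 259, 304 and 242 CPM in pre-NRC starvation against 139, 136 and 133 CPM in feeding (log2 change 0.98, SE 0.17, adjusted p = 0.00557), with all starved libraries above the feeding ones. Transcription factors of the prothoracic gland had 5 falls and 1 rise of 12 (−1.14), ecdysone response genes 0 and 3 of 22 (−0.57) and juvenile hormone genes 2 and 2 of 15 (0.18). The share of rises among ecdysone response genes, 13.6%, was near that of all genes. So were both shares of the juvenile hormone list, each 13.3%, and these counts say little about the lists. The rises among ecdysone response genes numbered 1 without feeding replicate 2, and 1 with feeding replicates 1 and 2 summed. Falls in that list numbered 6 without pre-NRC replicate 3, 4 with the replicate block, and 7 with replicates 1 and 2 alone, and those among the transcription factors 2 to 3 without any 1 of replicates 1 and 2 of either group, and 3 with feeding replicates 1 and 2 summed. The rises of the juvenile hormone list numbered 1 without pre-NRC replicate 2 and feeding replicates 1 and 2, 1 with feeding replicates 1 and 2 summed, and 4 with the replicate block. The single rise among the transcription factors was lost in limma-voom, in limma on the FPKM values and with feeding replicates 1 and 2 summed. It was also lost on leaving out pre-NRC replicates 1 and 2, post-NRC replicates 1 and 3 and feeding replicates 1, 2 and 3, each in turn.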

How the data were processed

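RNA-seq libraries were made from pooled ring glands of w1118 larvae with a directional kit, per the labels' protocols, which also name a small RNA kit. HISAT2, StringTie, Bowtie, Cufflinks and the build BDGP6 are named without roles per the submitters' processing notes. For the counting tool and its strand setting nothing is given in the sources used here, and reads of overlapping and antisense genes cannot be told apart. The table holds raw read counts per gene as the authors deposited them (14409 genes, 582 of them new genes of the authors' assembly), with no normalization. It also holds FPKM, which scale fragments by gene length and library size, computed by the authors and used here in 1 alternative only, as log2(FPKM + 1) in limma. Columns were tied to samples by the group and number in their names. The feeding columns are the only ones with no starvation term.

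Genes that passed edgeR's filterByExpr by group (10883) were fitted with the quasi-likelihood test of edgeR 4.0.16 (R 4.3.3) on all 9 libraries with TMM scaling and 1 mean per group. The contrast was pre-NRC starvation minus feeding, and p-values adjusted by Benjamini-Hochberg across these genes were called at 0.05. The biological coefficient of variation was 50.6%. SE is the log2 change divided by the root of F. CPM used the scaled library sizes. Where a gene had no count in a group, the fold is a bound against a floor of 3 counts over that group. Where it had 1 to 3, a ratio with an exact 95% interval is given. Bounds and intervals cover counting error only. Alternatives used limma 3.58.1 (also voom) and DESeq2 1.42.0, other scalings, filters and libraries, and the replicate number as a block. Same-numbered pre-NRC starvation and feeding libraries deviated together from their group means (correlation over genes 0.16, 0.12 and 0.30 for numbers 1, 2 and 3). A pairing by number entered only the block alternative. The main fit had group means alone, so its p-values and calls take no account of such a pairing. For number 2 the correlations with number 1 of the other group (0.12 and 0.13) were as high, so a pairing would rest mainly on replicate 3.

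The comparison and its gene lists were chosen with earlier results of these data known. Of 57 lists, 1396 distinct genes were matched by identifier or symbol to the table and 15 names were not found. Genes were named by rule: the 12 largest rises and 12 largest falls with separate groups and a mean of 50 or more counts in the higher one, up to 4 members of each list by smallest p in each direction, the most expressed members of lists with few calls, and known nutrient sensors. Some are left out for length, and markers named as not passing were chosen after their values were seen. Gene positions come from the annotation BDGP6.54, which holds 13605 of the 13827 FlyBase identifiers. The fitting was tested on simulated counts.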

Additional observations from a re-analysis of the deposited data

How the results depend on the processing

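The 2 counts of calls moved with the processing. Rises numbered 779 to 1884 and falls 387 to 1520 over the fits without 1 library. With feeding replicates 1 and 2 summed they numbered 810 and 453, and at an adjusted p of 0.01 they numbered 627 and 245. With the replicate block the falls numbered 2045, and with replicates 1 and 2 alone 2342. For the rises these fits gave 1955 and 2256. The other tools, scalings and filters kept both counts within 1.5 times (rises 1579 to 2309, falls 961 to 1525). RLE and upper-quartile factors moved the median log2 change of all genes to 0.05 and 0.10, against 0.0013 with TMM, and the share of rises among the calls was 58.4% with TMM, 61.9% with RLE and 66.4% with upper-quartile factors. Over 202 named genes and 4229 alternative values, 3553 kept direction and side of the threshold, 636 kept the direction but missed it, 21 passed it newly and 19 reversed. The reversals were in 7 genes. The log2 change of Thor was 0.44 with replicates 1 and 2 alone and −0.32 to 0.36 over the fits without 1 library. For dm the values were 0.0858 in limma on FPKM, 0.14 with replicates 1 and 2 alone and −0.56 to 0.37 in those fits. Lsp2 had −1.52 in limma on FPKM, −1.98 in limma-voom, −1.13 with the block, −2.99 with replicates 1 and 2 alone and −3.56 to 1.40 over the fits without 1 library. The change of tor was −0.0803 with feeding replicates 1 and 2 summed and −0.0551 to 0.43 in those fits. That of sta was −0.16 to 0.22 over the same fits, that of jhamt −0.0506 to 0.25 and that of park −0.0206 to 0.52. In the unaltered fit none of these 7 genes passed. The cause was not tested. Beyond the calls and counts given with the results, the replicate block changed no other call of a gene named above. A search for promoter motifs was not run, since promoter sequences were not used here. Depth was similar in all libraries. It limits genes under 1 CPM, among them 659 of the rises in feeding glands.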

Other observations

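Glands of larvae under post-NRC starvation, compared with the same feeding libraries, differed in few genes in edgeR's quasi-likelihood test: 69 were higher (0.634%) and 19 lower (0.175%). Because the comparisons share the feeding libraries, the values are only set side by side. Lip3 had 29.5, 23.1 and 53.8 CPM in post-NRC starvation and 294, 146 and 632 CPM in pre-NRC starvation, against 0.219, 0.121 and 0.306 CPM in feeding. Drs had 8.49, 12.8 and 8.31 CPM in post-NRC starvation and 25.1, 17.1 and 31.1 CPM in pre-NRC starvation, against 0.281, 0.302 and 0.337 CPM in feeding. The proteasome gene Prosalpha7 had 262, 261 and 205 CPM in post-NRC starvation and 111, 88.1 and 145 CPM in pre-NRC starvation, against 255, 247 and 254 CPM in feeding. Of the 24 antimicrobial peptide genes tested 5 were called higher in post-NRC starvation. Their median log2 change of post-NRC starvation over feeding was nonetheless 5.02, a value that leans upward as in the pre-NRC comparison. The list summed to 44.6 to 79.2 CPM in post-NRC starvation and 138 to 297 CPM in pre-NRC starvation, against 6.34 to 11.3 CPM in feeding. Whether the effects of early and late starvation differ was not tested here.

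The authors' assembly added genes that the annotation lacks. Of the 411 of these that were tested, 38 were higher and 34 lower in pre-NRC starvation than in feeding (edgeR's quasi-likelihood test, adjusted p of 0.05). Over all genes tested the shares were 16.1% higher and 11.5% lower, and both shares of the new genes lay below them. Exons of 467 of the 1750 rises and 527 of the 1248 falls overlap another annotated gene, and reads there cannot be assigned with certainty. The share of all genes tested with such overlap was not counted, so these counts do not set the calls apart from other genes.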
